A study of Mus musculus with 16 samples.

Results

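The genes described here are those of the unfolded protein response and the integrated stress response in isolated mouse ventricular cardiomyocytes. The list holds 38 genes, taken by their symbol in the platform annotation, and 37 of them were measured among 17097 genes with a probe set of their own. Mthfd2 was not matched to such a probe set and is not analysed here. Where a gene had several probe sets, the one with the highest mean over the 16 arrays was used. The members were read in 3 groups. The first held 15 ER chaperones and folding factors. The second held 10 ER stress sensors with XBP1 and the factors of ER-associated degradation (the ATF6 and XBP1 arm). The third, the ATF4 group, held 13 genes, of which 12 were measured: ATF4, its targets and Sesn1.

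The G protein-coupled estrogen receptor (GPER) is a membrane receptor for estrogen. RNA came from 16 mice with 1 array each, and the groups crossed genotype (GPER KO or intact) with sex, with 4 mice in each of the 4 combinations. GPER KO mice carried a deletion of the GPER gene that was confined to cardiomyocytes by design, and intact mice kept the gene. The labels call the intact mice wild type, and the sources used here do not describe their genotype further. The promoter that drove the deletion and the strain are not given in the sources used here. The labels put all mice at 15 weeks of age, while the methods of the study give an older age. Cells were freed from the ventricles by perfusion with collagenase, passed through a strainer and collected by a slow spin, with no sorting by marker. The mice are separate animals, so p-values measure the spread between mice. Females have lower animal numbers than males throughout, so sex and any order of processing that followed these numbers cannot be told apart.

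Proteins that are secreted or sit in membranes fold inside the endoplasmic reticulum (ER). When folding fails, 3 sensors in the ER membrane respond. ATF6 is cut to release a transcription factor, IRE1 (gene Ern1) splices the mRNA of Xbp1, and PERK (gene Eif2ak3) phosphorylates the translation factor eIF2. The ATF6 and XBP1 routes raise chaperones and degradation factors. Phosphorylated eIF2 lowers general protein synthesis and favours translation of Atf4, whose protein turns on genes of amino acid synthesis, redox balance and feedback control, and other kinases reach the same factor, which is why this branch is called the integrated stress response. Much of this control acts on splicing, cleavage and translation, which probe set signals of total mRNA do not measure. In heart muscle the pathway is known for its response to ischaemia and pressure load.

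The promoters of some members hold the sequence elements for which the pathway is known, and these are shown as a description. The members were chosen as genes of these pathways, so a higher share of matches than in all genes is not independent evidence. RefSeq windows of 250 bases before to 50 bases after the annotated gene start (GRCm38.p6) were available for 33 of the 38 members. The ER stress element, the site of ATF6 with NF-Y, was searched on both strands as CCAAT, then 9 bases of any kind, then CCACG. It was present in 6 of 13 chaperone windows (46.2%) and in 1 of 8 windows of the sensor and degradation group, against 37 of 27025 windows of all genes (0.137%). Members made up 7 of those 37 genes. The sequences follow from 5′ to 3′ on the strand of the gene, with the fixed letters of the element in capitals. A capital CGTGG before ATTGG is the same element read from the other strand.
Hspa5 (chr2:34772013-34772055, plus strand): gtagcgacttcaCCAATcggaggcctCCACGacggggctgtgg
Pdia6 (chr12:17266479-17266521, plus strand): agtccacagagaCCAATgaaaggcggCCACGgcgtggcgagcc
Dnajc3 (chr14:118937815-118937857, plus strand): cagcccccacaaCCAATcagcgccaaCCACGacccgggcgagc
Creld2 (chr15:88819508-88819550, plus strand): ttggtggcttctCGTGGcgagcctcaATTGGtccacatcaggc
Canx (chr11:50325788-50325830, minus strand): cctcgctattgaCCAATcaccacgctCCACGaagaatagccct
Hsp90b1, upstream copy (chr10:86705626-86705668, minus strand): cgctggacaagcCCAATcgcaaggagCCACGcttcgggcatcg
Hsp90b1, downstream copy (chr10:86705521-86705563, minus strand): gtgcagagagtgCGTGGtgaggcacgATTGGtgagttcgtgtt
Syvn1 (chr19:6046520-6046562, plus strand): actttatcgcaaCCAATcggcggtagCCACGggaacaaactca
All 8 copies lay before the annotated start, from 212 bases upstream in Hsp90b1 to 44 bases upstream in Syvn1. P4hb, the member with the clearest change below, had no match in its window, which says only that these letters are absent there.

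ATF4 binds with C/EBP partners to a composite element that was searched on both strands as TGATG, any base, then AA. It was found in Asns, Chac1 and Trib3, which are 3 of the 12 windows of the ATF4 group (25%), and in Herpud1, against 1219 of 27025 windows (4.51%). The stricter spelling TGATGCAA remained in Chac1 and Herpud1, against 1.03% of all windows. Capitals mark the fixed letters, and TT before CATCA is the element on the other strand.
Asns (chr6:7693213-7693244, minus strand): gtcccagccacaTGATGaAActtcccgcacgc
Chac1 (chr2:119351037-119351068, plus strand): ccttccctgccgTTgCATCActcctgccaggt
Herpud1 (chr8:94386305-94386336, plus strand): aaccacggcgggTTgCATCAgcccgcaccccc
The XBP1 site TGACGTGG was in none of the 33 member windows, with 0.714% of all windows holding it. The cAMP response element TGACGTCA was in Ppp1r15a only, with 2.03% of all windows holding it. These matches describe letters in a window and are not evidence of binding.

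**Figure D1:**
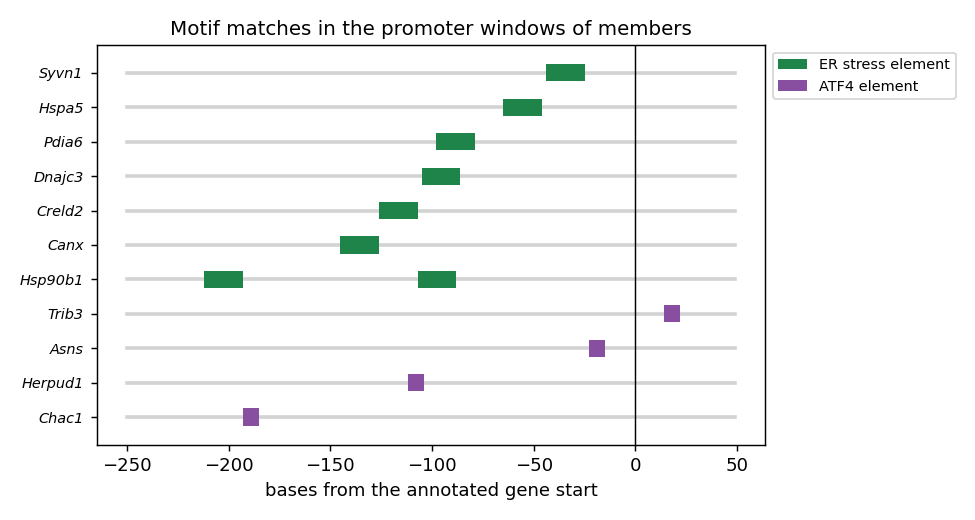
Position of motif matches in the promoter windows of 11 members, with bases from the annotated gene start on the horizontal axis and 1 line per gene. Green bars are ER stress elements and purple bars are ATF4 elements. The 8 green bars lie upstream of the start, while the ATF4 element of Trib3 begins 14 bases after it.

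Array medians were 3.47 to 3.51 (log2), which the normalization sets, and pairs of arrays correlated at 0.983 to 0.997 across genes. The 3′ minus 5′ signal, a sign of RNA degradation, was 0.09 to 0.32 for Gapdh, highest in female intact 422, and 0.51 (male GPER KO 451) to 0.96 (male intact 430) for actin. Cardiomyocyte markers such as Myl2 and Tnnt2 were at the top of the signal range, with a mean over 11 markers of 12.1 to 12.3 on every array. Eif2s3y and Xist separated the sexes as labelled. Gper1, the deleted gene, gave no check of the genotype labels, since its signal in intact mice lay below the array medians, where a loss may not show. In females its signal averaged 2.79 ± 0.13 without the gene and 2.87 ± 0.16 with it (SD, n = 4 each, two-sided exact permutation p = 0.457). In males it was 2.78 ± 0.07 and 2.77 ± 0.12 (SD, n = 4 each, exact permutation p = 0.971). The smallest p that 4 against 4 arrays allow is 0.0286. The position of the Gper1 probe set against the deletion is not known here, and a probe set outside the deletion would check nothing. Markers of other cells were present, and some of their lists differed by genotype. The mean over 15 macrophage markers was 4.72 to 5.04 in female GPER KO and 4.43 to 4.67 in female intact arrays, and 4.95 to 5.65 and 4.57 to 5.12 in males. Of these markers 14 of 15 in females and 15 of 15 in males were higher in GPER KO, and 6 passed an adjusted p of 0.05 in males (Mpeg1, Cd68, Lyz2, Ctss, Fcgr3 and Tyrobp). None passed in females (smallest limma adjusted p = 0.107). The mean over 10 fibroblast markers was 5.06 to 5.35 against 4.73 to 5.21 in females and 4.91 to 5.70 against 4.88 to 5.47 in males. In females 8 of these 10 and in males 6 of 10 were higher in GPER KO, with none past the adjusted threshold. Endothelial markers were below 0 in 12 of 13 in females and 13 of 13 in males, with none past the adjusted threshold. Smooth muscle and pericyte markers were above 0 in 1 of 6 in each sex. T cell markers were above 0 in 3 of 6 in females and 5 of 6 in males. None of either list passed. The mean over 5 B and plasma cell markers was 2.86 to 3.02 on every array. Pou2af1 and Cd79b were close to the lowest signals measured, at percentiles 3.4 and 7.9 of all genes. Jchain, Ms4a1 and Cd79a were higher, at percentiles 15.5, 24.1 and 44.8. In a bulk sample, fewer cells of a type and less RNA per cell cannot be told apart.

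The question put to the genotype comparison was whether cardiomyocytes without GPER differed in these stress genes, and whether the sexes differed in that. Few members changed. P4hb was the only member past an adjusted p of 0.05, in males and in the average of the sexes, and it was higher in GPER KO. Hspa5, the central ER chaperone, and Atf4 and Ddit3, the main transcription factors of the integrated stress response, did not pass in either sex. In males, 9 of 37 members (24.3%) had an unadjusted p under 0.05, 7 of them higher in GPER KO, against 10.1% of all genes. In females it was 5 of 37 (13.5%), against 12.6% of all genes. At an adjusted p of 0.05 from limma, 1 of 37 members was called in males, against 0.62% of all genes, and 0 of 37 in females, against 0.281%. The median change over the members was 0.03 (log2) in females and 0.04 in males, beside -0.02 and 0.02 over all genes. In each sex 23 of 37 members (62.2%) lay above 0, against 41.2% of all genes in females and 56.5% in males.

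**Figure D2:**
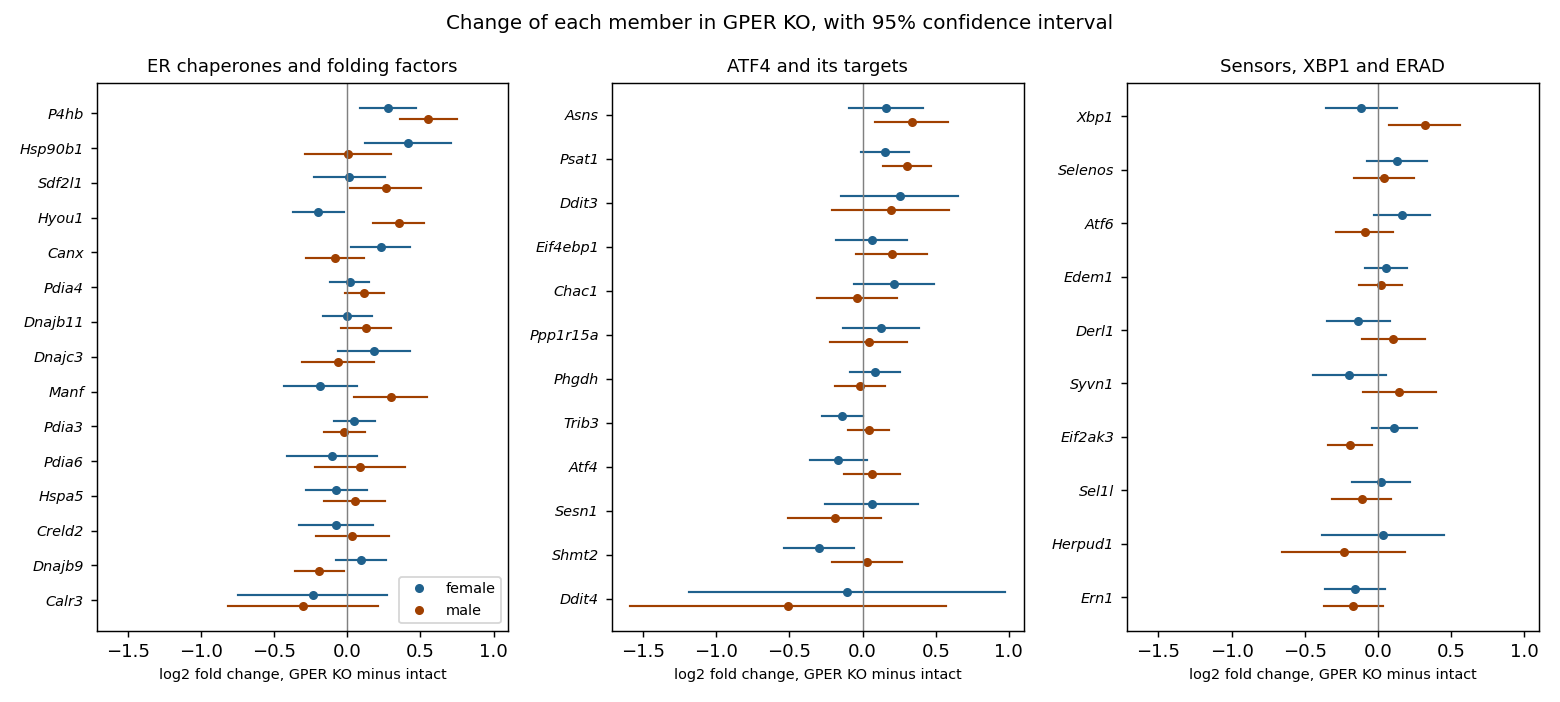
Log2 fold change of each of the 37 measured members, GPER KO minus intact, in females (blue) and males (brown), with the 95% confidence interval from limma as a line. Members are ordered within each group by the average of the sexes. P4hb lies right of 0 in both sexes at 0.28 and 0.55, Hyou1 lies on opposite sides of 0, and the interval of Ddit4 is the widest.

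P4hb (chromosome 11, 120560298 to 120573253, GRCm38.p6) encodes protein disulfide isomerase, which forms and rearranges disulfide bonds in the ER and is also the beta subunit of the collagen prolyl 4-hydroxylase. Its 4 female intact arrays read 8.61, 8.75, 8.84 and 8.87 (log2 signal), and the 4 female GPER KO arrays 8.92, 8.97, 9.14 and 9.16. The male intact arrays read 8.45, 8.53, 8.57 and 8.71, and the male GPER KO arrays 8.89, 9.06, 9.24 and 9.29. The genotypes did not overlap in either sex, and the 8 GPER KO arrays (8.89 to 9.29) all lay above the 8 intact arrays (8.45 to 8.87). P4hb had 1 probe set, so no further probe set could be set beside it. The difference was 0.55 in males (SE 0.09, 1.47-fold, limma adjusted p = 0.00771) and 0.28 in females (SE 0.09, 1.21-fold, adjusted p = 0.23). Averaged over the sexes, a comparison on the same arrays, it was 0.42 (SE 0.06, 1.33-fold, adjusted p = 0.00271), and P4hb was the 1 member called of 37, against 1.36% of all genes. The male minus female difference of the effect was 0.28 (95% interval 0.002 to 0.548, adjusted p = 0.453), so a difference between the sexes did not pass the test. Collagen-producing and phagocytic cells also make this enzyme. The macrophage and fibroblast means given above were higher in GPER KO on average, though the fibroblast ranges overlapped in each sex. The male GPER KO array with the highest P4hb, mouse 451 at 9.29, had a macrophage mean of 4.95 and a fibroblast mean of 4.91, both within the ranges of the male intact arrays. Male GPER KO mice 432, 431 and 444 had macrophage means of 5.38, 5.59 and 5.65, above the male intact range of 4.57 to 5.12. Their fibroblast means were 5.42, 5.52 and 5.70, against 4.88 to 5.47 in male intact arrays. The part of other cells in the P4hb difference was not tested.

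Among the other chaperones, a few were separated by genotype in males, and none passed the adjusted threshold. In females 1 member (P4hb) was higher in every GPER KO array than in every intact array, against 1.95% of all genes, and 0 were lower, against 3.73%. In males 5 members were higher without overlap (P4hb, Hyou1, Manf, Sdf2l1 and Psat1), against 4.24% of all genes, and 2 were lower (Dnajb9 and Eif2ak3), against 1.97%. Hyou1, a large chaperone of the Hsp70 family induced by hypoxia, had male intact values of 5.58, 5.63, 5.69 and 5.85 and male GPER KO values of 5.94, 6.04, 6.09 and 6.09. Its female intact values were 6.004, 6.08, 6.09 and 6.16, and its female GPER KO values were 5.62, 5.94, 5.98 and 6.01, with GPER KO on the lower side. The difference was 0.35 in males (SE 0.08, limma adjusted p = 0.0709) and -0.20 in females (SE 0.08, adjusted p = 0.335). The male minus female difference of the effect was 0.55 (SE 0.12, unadjusted p = 0.000216), which did not pass over all genes (adjusted p = 0.426). A further Hyou1 probe set of similar signal gave 0.05 in males and -0.12 in females, so the size of the male value rests on the probe set used. Without female GPER KO 427, whose 5.62 was the low value, Hyou1 passed in males with a limma adjusted p of 0.0179. The male difference stayed at 0.35, since the male arrays were the same and the removal changed the spread estimate shared by the groups.

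Manf, a secreted protein that leaves cells under ER stress and protects them, read 7.0, 7.005, 7.13 and 7.15 in male intact and 7.23, 7.34, 7.36 and 7.54 in male GPER KO arrays. In females the intact arrays read 7.36, 7.37, 7.41 and 7.90 and the GPER KO arrays 7.06, 7.33, 7.40 and 7.53, which overlapped. Sdf2l1, a cofactor that keeps ER proteins from aggregating, showed the same separation in males, where intact arrays read 4.88, 4.91, 4.95 and 4.99 and GPER KO arrays 5.15, 5.18, 5.18 and 5.26. Its female arrays overlapped, at 5.11, 5.17, 5.37 and 5.44 in intact and 5.06, 5.09, 5.28 and 5.72 in GPER KO mice. Dnajb9, a partner of Hspa5 that restrains IRE1, went the other way in males, with 8.46, 8.47, 8.57 and 8.64 in intact and 8.28, 8.33, 8.37 and 8.39 in GPER KO arrays. Its female values were 7.95, 8.09, 8.24 and 8.35 in intact and 8.08, 8.28, 8.31 and 8.33 in GPER KO arrays. The male differences were 0.30 for Manf (SE 0.12, limma adjusted p = 0.362), 0.26 for Sdf2l1 (SE 0.11, adjusted p = 0.437) and -0.19 for Dnajb9 (SE 0.08, adjusted p = 0.412). None passed over all genes. The difference between the sexes was 0.48 for Manf (SE 0.17, adjusted p = 0.426) and -0.29 for Dnajb9 (SE 0.11, adjusted p = 0.426).

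**Figure D3:**
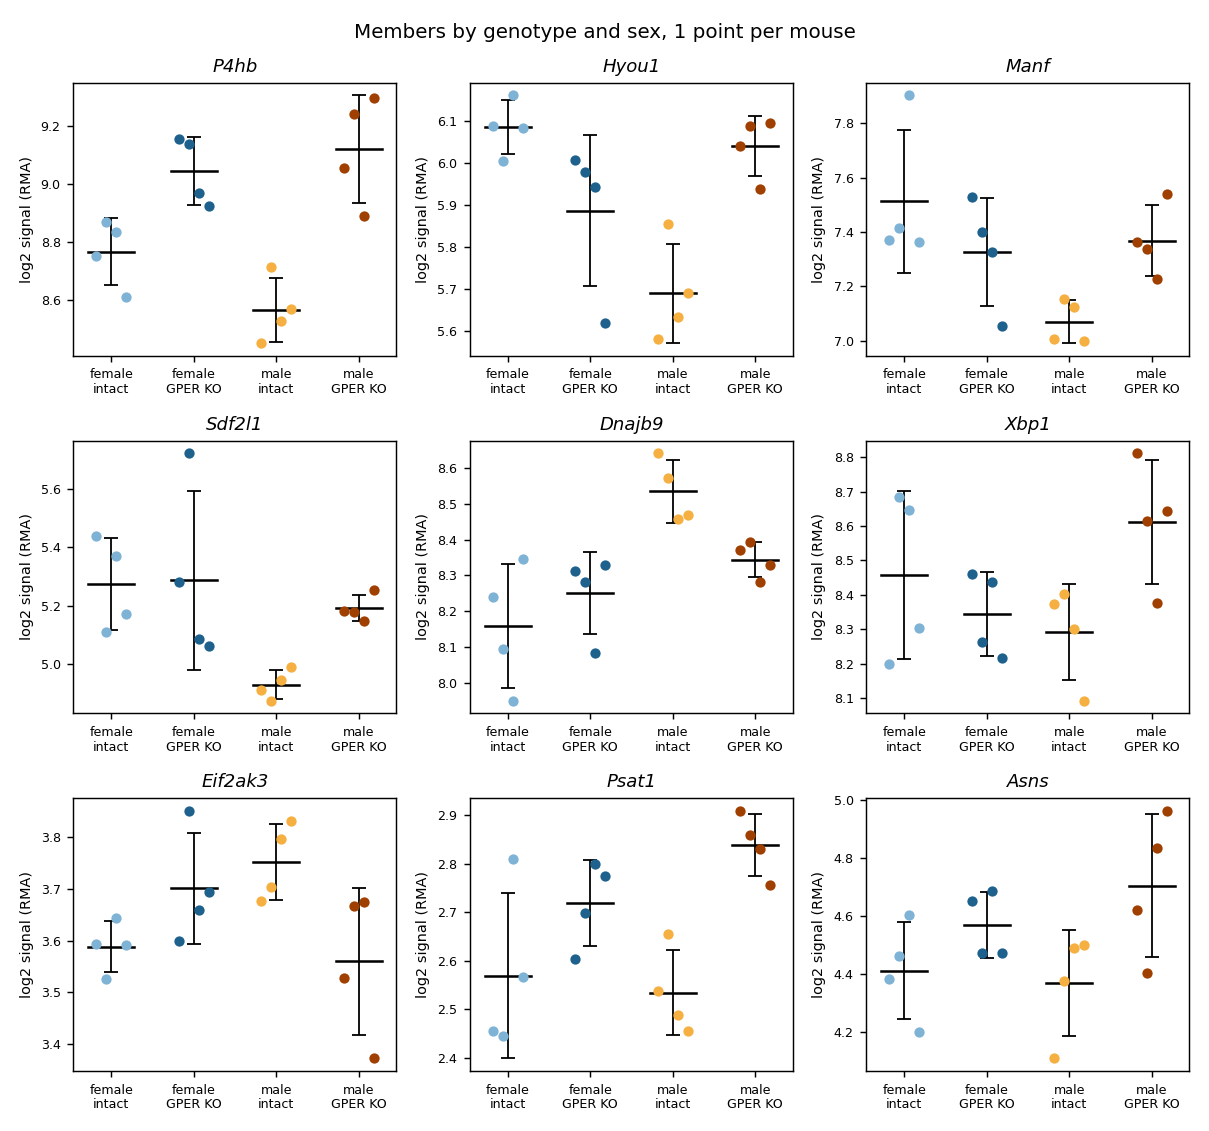
Log2 signal of 9 members on each of the 16 arrays by group. Each point is a mouse, the long line marks the mean of its group and the bar the SD of 4 mice, and the vertical axis differs between genes and does not start at 0. P4hb is separated by genotype in each sex, while Hyou1, Manf, Sdf2l1 and Psat1 (upward) and Dnajb9 and Eif2ak3 (downward) are separated in males alone. The male ranges of Eif2ak3 nearly touch.

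In females the chaperones with an unadjusted p under 0.05 were P4hb, Hsp90b1 and Canx, with positive differences, and Hyou1 (above), with a negative one. None passed the adjusted threshold. Hsp90b1, the ER form of Hsp90, read 9.09, 9.14, 9.61 and 9.66 in female intact and 9.46, 9.70, 9.89 and 10.13 in female GPER KO arrays, a difference of 0.42 (SE 0.14, limma adjusted p = 0.234), with overlap. In males it was 0.01 (SE 0.14). A further Hsp90b1 probe set gave 0.37 in females and 0.14 in males. Canx, the membrane lectin that holds glycoproteins during folding, differed by 0.23 in females (SE 0.09, adjusted p = 0.337) and -0.08 in males, and the difference between the sexes was -0.31 (SE 0.13, adjusted p = 0.427). The low female intact values of Hsp90b1 and Canx came from mice 421 and 422, at 9.31 and 9.19 for Canx, while the other intact females read 9.60 and 9.67. These mice also had the highest female values on the endothelial and immediate early gene lists, 6.95 and 7.08, and 7.42 and 7.32. Without these 2 mice the female difference was 0.16 for Hsp90b1 (limma adjusted p = 0.931) and 0.035 for Canx (adjusted p = 0.988). As these mice hold the lowest intact values, leaving them out had to shrink both differences, and it leaves 2 intact females. The part of the cell mixture of these mice was not tested.

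Hspa5 (BiP), the abundant chaperone that keeps the sensors inactive, read 9.65, 9.98, 10.02 and 10.13 in female intact and 9.72, 9.86, 9.89 and 10.02 in female GPER KO arrays. In males it read 9.60, 9.77, 9.84 and 9.95 in intact and 9.74, 9.83, 9.87 and 9.91 in GPER KO arrays. The groups overlapped fully, with a difference of -0.08 in females (95% interval -0.28 to 0.13) and 0.05 in males (-0.16 to 0.26), and a further Hspa5 probe set gave -0.05 and 0.02. The remaining chaperones Dnajb11, Dnajc3, Creld2, Calr3, Pdia3, Pdia4 and Pdia6, cofactors and disulfide isomerases of the lumen, ranged from -0.24 (Calr3) to 0.18 (Dnajc3) in females and from -0.30 (Calr3) to 0.13 (Dnajb11) in males, with no unadjusted p under 0.05. Over the 15 chaperones the median was 0.01 in females and 0.05 in males. The 6 chaperones with an ER stress element printed above had medians of 0.05 in females and 0.02 in males, beside 0.01 and 0.13 for the other 9, of which 2 had no promoter window. An unadjusted p under 0.05 was reached by 2 of the 6 and 2 of the 9 in females, and by 0 of the 6 and 5 of the 9 in males. The difference between these sets was not tested.

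In the sensor and degradation group no gene passed the adjusted threshold in the genotype comparisons. Eif2ak3 (PERK) was the 1 separated gene, with male intact arrays at 3.676, 3.70, 3.80 and 3.83 and male GPER KO arrays at 3.37, 3.53, 3.67 and 3.674. The 2 ranges nearly touched, and the difference was -0.19 (SE 0.07, limma adjusted p = 0.326). Its female arrays read 3.53, 3.59, 3.59 and 3.64 in intact and 3.60, 3.66, 3.69 and 3.85 in GPER KO mice, a difference of 0.11, and the difference between the sexes was -0.30 (SE 0.10, adjusted p = 0.426). This signal is close to the array median, and dimmer Eif2ak3 probe sets gave 0.02 and -0.01 in males. Ern1 (IRE1) gave -0.16 on average over the sexes (SE 0.07, adjusted p = 0.353), at -0.16 in females and -0.17 in males. Atf6 differed by 0.17 in females (SE 0.09, adjusted p = 0.465) and -0.09 in males.

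Xbp1, the transcription factor that IRE1 activates by splicing, had the highest male difference of its group. Its male intact arrays read 8.09, 8.30, 8.37 and 8.40 and its male GPER KO arrays 8.38, 8.62, 8.64 and 8.81, so that the lowest GPER KO array fell among the intact ones. In females the intact arrays read 8.20, 8.30, 8.65 and 8.68 and the GPER KO arrays 8.22, 8.26, 8.44 and 8.46. The male difference was 0.32 (SE 0.11, 1.25-fold, limma adjusted p = 0.299) and the female difference -0.11 (SE 0.11). The difference between the sexes was 0.43 (SE 0.16, unadjusted p = 0.017, adjusted p = 0.426). Of the other 3 probe sets of Xbp1, 2 gave 0.35 each in males and the dimmest gave 0.01. Spliced and unspliced Xbp1 mRNA were not told apart. The degradation factors Derl1, Edem1, Herpud1, Sel1l, Selenos and Syvn1, which move misfolded proteins out of the ER or mark them for the proteasome, had no unadjusted p under 0.05. They ranged from -0.19 (Syvn1, adjusted p = 0.529) to 0.13 (Selenos) in females and from -0.23 (Herpud1) to 0.15 (Syvn1) in males.

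In the ATF4 group the smallest p values in males belonged to enzymes of amino acid synthesis, and no gene passed the adjusted threshold. Atf4 itself read 8.13, 8.17, 8.42 and 8.47 in female intact and 8.06, 8.09, 8.18 and 8.20 in female GPER KO arrays. In males it read 7.93, 8.09, 8.10 and 8.25 in intact and 8.03, 8.05, 8.22 and 8.33 in GPER KO arrays. The differences were -0.17 in females (95% interval -0.36 to 0.03) and 0.07 in males (-0.13 to 0.26). Ddit3 (CHOP), the factor linked to cell death under prolonged stress, read 6.09, 6.74, 6.83 and 7.07 in female intact and 6.54, 6.95, 7.09 and 7.15 in female GPER KO arrays. Its male values were 6.44, 6.77, 6.95 and 7.01 in intact and 6.77, 6.92, 6.97 and 7.29 in GPER KO arrays. The differences of 0.25 (SE 0.19) and 0.19 (SE 0.19) were about as large as their errors.

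Asns, which makes asparagine, read 4.20, 4.38, 4.46 and 4.60 in female intact and 4.47, 4.47, 4.65 and 4.68 in female GPER KO arrays. In males it read 4.11, 4.37, 4.49 and 4.50 in intact and 4.40, 4.62, 4.83 and 4.96 in GPER KO arrays. The GPER KO mean was above the intact mean in each sex, by 0.34 in males (SE 0.12, limma adjusted p = 0.285), 0.16 in females (SE 0.12) and 0.25 over the sexes (SE 0.08, adjusted p = 0.212). Psat1, an enzyme of serine synthesis, read 2.45, 2.49, 2.54 and 2.66 in male intact and 2.76, 2.83, 2.86 and 2.91 in male GPER KO arrays, without overlap. In females it read 2.44, 2.45, 2.57 and 2.81 in intact and 2.60, 2.70, 2.78 and 2.80 in GPER KO arrays. The difference was 0.31 in males (SE 0.08, adjusted p = 0.104) and 0.23 over the sexes (SE 0.05, adjusted p = 0.0527), with the probe set at percentile 18.2 of all probe sets and thus near the lowest signals. Psat1 passed over the sexes without female GPER KO 417 (limma adjusted p = 0.0471), female intact 422 (0.00606) or male intact 433 (0.0467). In males it passed without female intact 422 (0.0316), which left the male difference at 0.305 and changed the spread estimate shared by the groups. Phgdh, the enzyme before Psat1 in the same path, differed by 0.09 in females and -0.02 in males.

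Shmt2, which passes one-carbon units from serine in mitochondria, gave -0.30 in females (SE 0.11, limma adjusted p = 0.289) and 0.03 in males. Its female intact values were 5.60, 5.61, 5.88 and 6.05 and its GPER KO values 5.35, 5.42, 5.58 and 5.61. The study tabulates Shmt2 among mitochondrial genes of females from these same samples, so its naming there is not independent evidence. Its rank score in that listing is positive, while the female difference here was negative. The cause of the unlike signs was not tested. The feedback and signalling genes of the group had no unadjusted p under 0.05. These were Chac1 (glutathione degradation), Trib3 (a pseudokinase that binds ATF4) and Ppp1r15a (the subunit that returns eIF2 to its active form). Eif4ebp1 (a brake on translation), Sesn1 and Ddit4 (brakes on mTORC1) were the others. They ranged from -0.14 (Trib3, adjusted p = 0.404) to 0.21 (Chac1) in females and from -0.51 (Ddit4) to 0.20 (Eif4ebp1) in males. Over the 12 measured genes of the group, 8 (66.7%) lay above 0 in each sex, with medians of 0.08 in females and 0.04 in males. Of all genes, 41.2% in females and 56.5% in males lay above 0.

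For the male minus female difference of the genotype effect, 0 of 37 members passed an adjusted p of 0.05, against 0% of all genes, and 7 of 37 (18.9%) had an unadjusted p under 0.05, against 11% of all genes. These were Hyou1, Manf, Xbp1 and P4hb, with positive differences, and Eif2ak3, Dnajb9 and Canx, with negative ones. Over the sexes together 5 of 37 (13.5%) had an unadjusted p under 0.05, against 11.7% of all genes: P4hb, Psat1, Asns, Ern1 and Hsp90b1, the last at 0.21 (SE 0.10, limma adjusted p = 0.413).

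Between the sexes, over both genotypes, most chaperones lay below 0 and most genes of the sensor and degradation group above it, many of the latter only slightly. Of the 15 chaperones, 14 had a negative value (log2, male minus female), with a median of -0.12, while 9 of the 10 genes of the sensor and degradation group had a positive value, with a median of 0.05. Of the positive values in the second group, those of Eif2ak3, Selenos, Syvn1, Sel1l and Xbp1 were 0.01 to 0.05, each smaller than its SE. The median over all genes was 0.00, and 49.4% of all genes lay above 0. At an adjusted p of 0.05, 2 of 37 members passed, Pdia6 and Atf6, against 1.04% of all genes, and 11 of 37 (29.7%) had an unadjusted p under 0.05, against 17.9%. Most markers of macrophages (14 of 15), endothelium (12 of 13) and fibroblasts (9 of 10) also lay above 0 (male minus female). Other cell lists did so less, with 4 of 6 smooth muscle and pericyte, 2 of 5 B and plasma cell and 0 of 6 T cell markers. Of the heat shock genes of the cytosol and mitochondria, 7 of 7 lay above 0. Of the 15 macrophage markers Mpeg1 (0.46) and Cd68 (0.38) passed the adjusted threshold. Their part in the values of the stress genes between the sexes was not tested.

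Pdia6, a disulfide isomerase whose promoter holds an ER stress element (above), read 7.66, 7.68, 7.89 and 7.96 in female intact and 7.37, 7.46, 7.73 and 8.21 in female GPER KO arrays. Its male values were lower, at 7.15, 7.17, 7.28 and 7.36 in intact and 7.05, 7.39, 7.42 and 7.43 in GPER KO arrays. Among intact mice the sexes did not overlap. The difference was -0.46 (SE 0.10, limma adjusted p = 0.0417). Atf6 read 6.70, 6.87, 6.88 and 6.93 in female intact and 6.75, 7.08, 7.10 and 7.12 in female GPER KO arrays. Its male values were higher, at 7.19, 7.23, 7.26 and 7.37 in intact and 7.004, 7.08, 7.30 and 7.31 in GPER KO arrays, a difference of 0.29 (SE 0.06, adjusted p = 0.0411). Both calls lay close to the threshold. Neither passed when male intact 433, 452 or 453, male GPER KO 432, female intact 421 or female GPER KO 417 was left out alone, which left 0 members called. Leaving out female intact 418 gave 4 members (Atf6, Chac1, Dnajb9 and Edem1). Without female GPER KO 419 or 426 or male intact 430, Pdia6 alone was called, and without male GPER KO 431 or 444, Atf6 alone. The other probe set of Atf6 gave 0.09, and the dim other probe set of Pdia6 gave -0.02.

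**Figure D4:**
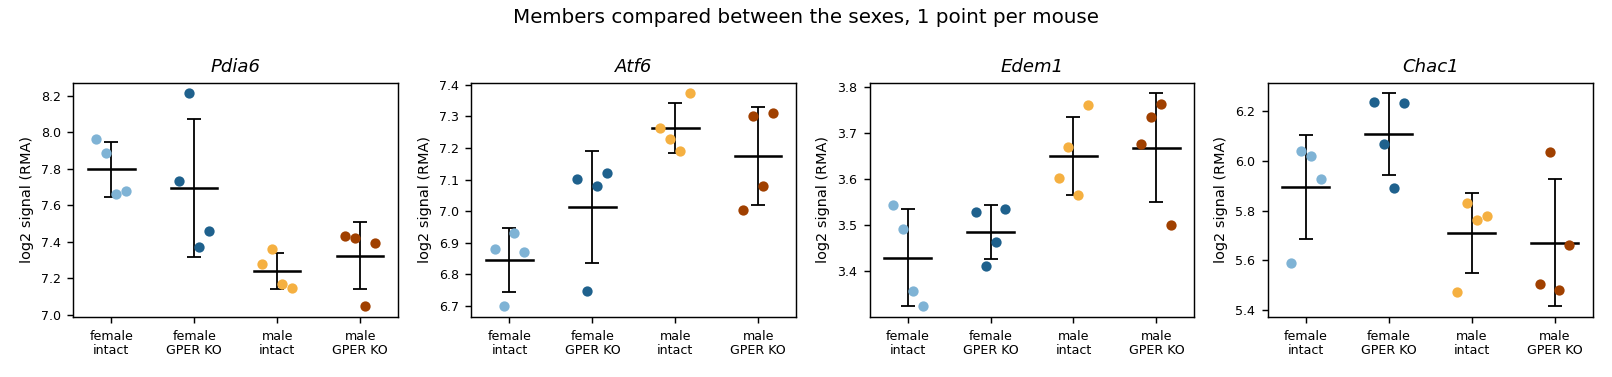
Log2 signal of Pdia6, Atf6, Edem1 and Chac1 on each of the 16 arrays by group. Points are mice, lines are group means and bars the SD of 4 mice, and the vertical axes do not start at 0. Pdia6 and Chac1 are lower and Atf6 and Edem1 higher in males on average.

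Of the other members with an unadjusted p under 0.05 between the sexes, Edem1, which extracts glycoproteins for degradation, gave 0.20 (SE 0.05, limma adjusted p = 0.0553) and Dnajb9 gave 0.23 (SE 0.06, adjusted p = 0.0553). Chac1 gave -0.31 (SE 0.09, adjusted p = 0.0928). Calr3 (-0.45), Sdf2l1 (-0.22), Manf (-0.20), Creld2 (-0.20) and Dnajb11 (-0.16) had values of the same sign, with adjusted p of 0.146 to 0.222. Ern1 gave 0.19 on the probe set used (adjusted p = 0.164), whereas a dimmer Ern1 probe set gave -0.23 (adjusted p = 0.0325 over all probe sets), so its direction depends on the probe set.

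The median spread between mice of a group was higher over these genes than over all. It was 0.16 (SD, log2) over the members, against 0.11 over all genes. Most members had signals above the array medians, and signal level was not matched in this comparison, so the higher spread cannot be read as a trait of these genes. Ddit4, which is induced by hypoxia, glucocorticoids and ATF4, stood out with a pooled SD of 0.83, at percentile 99.9 of all genes. Its intact arrays read 5.97, 6.56, 7.69 and 8.40 in females and 6.11, 6.94, 8.43 and 8.43 in males. The GPER KO arrays lay closer together, at 6.85, 6.96, 7.14 and 7.24 in females and 6.54, 6.61, 7.35 and 7.37 in males. The GPER KO range of each sex lay inside the intact range, and whether the spread differs with genotype was not tested. Calr3 (0.39), Herpud1 (0.32) and Ddit3 (0.30) followed. For 12 pairs of members, deviations from the group means were correlated over the 16 mice, with permutations within groups and adjustment over the 12. No pair passed. Atf4 and Asns gave Pearson r = 0.64 (permutation p = 0.0297, adjusted p = 0.267) and Spearman rho = 0.61 (p = 0.0426, adjusted p = 0.431), with r = 0.60 without the 2 mice farthest out in Atf4. Ddit4 and Sesn1 gave r = -0.58 (permutation p = 0.0446, adjusted p = 0.267) and rho = -0.56 (p = 0.0718, adjusted p = 0.431), with r = -0.46 without the 2 mice farthest out in Ddit4. Hspa5 and Hsp90b1 gave r = 0.42 (permutation p = 0.254, adjusted p = 0.609) and rho = 0.35 (p = 0.268, adjusted p = 0.644). Hspa5 gave r = 0.35 with Sdf2l1, 0.19 with Pdia4, -0.05 with Xbp1, -0.10 with Herpud1 and -0.39 with Asns. Asns gave -0.03 with Trib3, -0.08 with Chac1 and -0.04 with Psat1, and Ddit3 gave -0.30 with Ppp1r15a.

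**Figure D5:**
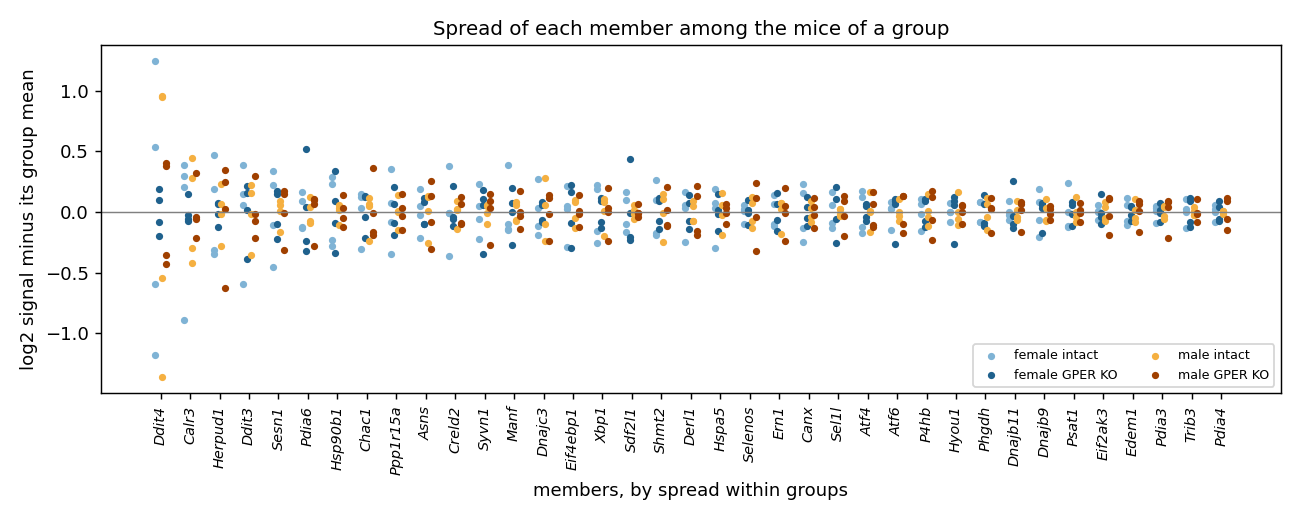
Deviation of each array from its group mean (log2) for the 37 measured members, ordered by their spread within groups, with 1 colour per group. Ddit4 spreads widest, with a pooled SD of 0.83, and its intact mice lie farther from their mean than its GPER KO mice.

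Other genes of the same pathways were read from lists for comparison. Of 33 further genes of the ER lumen, degradation and membrane factors, 5 (15.2%) had an unadjusted p under 0.05 in females, against 12.6% of all genes, and 6 (18.2%) in males, against 10.1%. All of these had a positive value, and none passed the adjusted threshold in 1 sex. Creb3, a membrane-bound transcription factor of the ATF6 type, passed over the sexes at 0.33 (SE 0.07, limma adjusted p = 0.0267), with 0.33 in females and 0.34 in males. Mbtps2, the protease that releases ATF6 from the membrane, was 0.43 higher in males than in females (SE 0.09, adjusted p = 0.034). The smallest p in females belonged to Spcs3 (0.28, adjusted p = 0.185), a subunit of the signal peptidase, and Dnajc10 (0.23, adjusted p = 0.204), an ER reductase. Of 41 further genes of the integrated stress response, 5 (12.2%) had an unadjusted p under 0.05 in females, against 12.6% of all genes, and 7 (17.1%) in males, against 10.1%. Of these, 4 were positive and 1 negative in females, and 3 positive and 4 negative in males. None was called in any of the comparisons. The smallest p belonged to Eprs (0.27, adjusted p = 0.184), a tRNA synthetase, and Eif2b1 (-0.17, adjusted p = 0.224), a subunit of the eIF2 exchange factor, in females. In males it belonged to Cth (-0.32, adjusted p = 0.214), an enzyme of cysteine synthesis, and Sars (0.26, adjusted p = 0.232), a tRNA synthetase. Their medians were -0.01 in females and 0.08 in males.

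Genes that respond to the isolation of cells were read beside these. Of 7 heat shock genes of the cytosol and mitochondria none was called. Hsp90aa1, the inducible cytosolic Hsp90, had the smallest p, with a difference of 0.76 in females (SE 0.17, limma adjusted p = 0.085) and 0.25 in males. Of 16 immediate early genes, 3 lay above 0 in females and 5 in males, against 41.2% and 56.5% of all genes, with medians of -0.18 and -0.11. Myc was the only one called, over the sexes, at 0.27 (SE 0.06, adjusted p = 0.0426). The means over the immediate early list were 6.70 to 7.42 in intact and 6.76 to 7.21 in GPER KO arrays. Their part in the values of the stress genes was not tested.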

How the data were processed

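RNA of isolated ventricular cardiomyocytes from 16 mice was hybridised to 3′ expression arrays, and the deposited values are log2 signals per probe set. RMA and Partek, with no version, stand in the processing notes of the authors. Scanner signals were not used here, so background correction and normalization were not repeated. Of 45141 probe sets, 28898 had 1 gene in the platform annotation, and symbols were updated by Entrez identifier to RefSeq GRCm38.p6 (28689 matched). The probe set with the highest mean stood for a gene.

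The gene tests used limma 3.58.1 in R 4.3.3 (4 group means, all 16 arrays, no filter), with Benjamini-Hochberg adjustment over 17097 genes and a threshold of 0.05. The test was tried on simulated data. Gper1 was compared by exact permutation, and member pairs by 100000 permutations. Members, lists and the removal of female intact 421 and 422 were chosen with earlier results of these data known. Named genes were Gper1, members with an unadjusted p under 0.05 in a comparison (otherwise the 2 smallest per group and sex), and called genes of other lists or their 2 smallest p in each sex. Arrays are given in full for Hspa5, Xbp1, Atf4, Ddit3, Asns and for members called or without overlap. Those of Hsp90b1, Shmt2, Ddit4 and some of Canx, and the genes of the cell marker lists, were added after their values were seen. Alternatives were other summaries of probe sets, a filter on low values, normalization, centring, weights, trend and robust settings, a block of animal numbers, 1 sex alone, another threshold, and arrays left out.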

Additional observations from a re-analysis of the deposited data

Results flagged for a closer look

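Within the 148 groups of 4 arrays formed by 37 members and 4 groups, 6 held 1 array far from the other 3 by Dixon's criterion, and chance gives about 1 in 20 groups. Low arrays were female GPER KO 419 for Atf6 (6.75, others 7.08 to 7.12), female intact 425 for Calr3 (5.72, others 6.82 to 7.01), female GPER KO 427 for Hyou1 (5.62, others 5.94 to 6.01), male GPER KO 431 for Pdia3 (4.03, others 4.29 to 4.34) and male GPER KO 444 for Pdia6 (7.05, others 7.39 to 7.43). The high array was female intact 422 for Manf (7.90, others 7.36 to 7.41). These arrays are from 6 different mice.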

How the results depend on the processing

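P4hb was called in males in 26 of 26 alternatives, at 0.50 to 0.63 (adjusted p = 0.00254 to 0.0459), and over the sexes in 25 of 25. P4hb had 1 probe set, so other summaries of probe sets left its signals as they were and gave no further check of them. The count of called members in females and for the difference between the sexes was 0 in every alternative run, with 5 and 7 members at an unadjusted p under 0.05. In males the count of 1 rose to 3 with array weights (Hyou1, P4hb, Psat1) and to 2 without female intact 421 and 422 or at an adjusted p under 0.1, and it was 1 to 2 with single arrays left out. Leaving out female arrays did not alter the male differences and changed the spread estimate shared by the groups. Over the sexes the count of 1 rose to 2 (P4hb, Psat1) with the mean of probe sets, repeated quantile normalization, array weights, trend and robust settings, without female intact 421 and 422, and at an adjusted p under 0.1, with 1 to 2 for single arrays left out. For male minus female, the count of 2 became 0 with the mean of probe sets and without female intact 421 and 422, 1 with repeated quantile normalization (Pdia6), 4 with array weights and 5 at an adjusted p under 0.1, and it was 0 to 4 with single arrays left out. Pdia6 passed in 14 of 25 alternatives and Atf6 in 11 of 25. The median over members for the difference of the genotype effect was -0.036 to 0.113 with single arrays left out, the highest without female intact 425. Ern1 changed sign between the sexes with the mean of its probe sets (-0.019, limma adjusted p = 0.796). The cause of these changes was not tested. The filter on low values removed Psat1. No paired analysis was possible because each animal number belongs to 1 mouse and the groups share none. The 4 arrays per group limit what small differences could be seen.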
